A study of Nasonia vitripennis with 39 samples.

Results

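CYP6CK8 and CYP6CK11 are genes of the CYP6 family of cytochrome P450 enzymes in the parasitoid wasp Nasonia vitripennis. They were taken by name, as 2 of the 14621 genes in the counts table, 2 of the 7 genes whose symbol begins with CYP6CK and 2 of the 42 with a cytochrome P450 symbol. The pair had been chosen by its male bias, the excess of male over female libraries in these same counts and TPM, so their difference between the sexes is described below and not tested. Both genes passed the filter on low counts in each of the 3 fits (heads, abdomens and all libraries), in each case through the male groups or abdomens in which they were high.

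Cytochrome P450 enzymes are haem proteins that add an oxygen atom to small lipophilic molecules, drawing electrons from a partner reductase. Insect genomes carry many of them, and CYP6 is one of the families that expand by tandem duplication. CYP6 enzymes of insects are best known for breaking down plant compounds and insecticides, mostly in the midgut and fat body, and P450 enzymes of several families also make or clear hormones and odorants.

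Poly(A) RNA was sequenced from heads and abdomens of wasps of the Whiting Polyploid Line (WPL), a laboratory line in which polyploidy arose spontaneously. Nasonia is haplodiploid, so that males normally carry 1 chromosome set and females 2. The 8 groups were 2N male abdomens, 1N male abdomens, 3N female abdomens, 2N female abdomens, 2N male heads, 1N male heads, 3N female heads and 2N female heads, with the genotype given as WPL_LSL_ followed by the ploidy and all animals taken 1 day after emergence. Each group had 5 libraries, except the 2N female abdomens with 4. All groups, 1N males and 2N females included, were of this 1 line. The labels tie no head to an abdomen and do not say whether animals were pooled. The p-values therefore measure only how these libraries spread, which may be technical.

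The depth of a library lay between 16.3 and 132 M estimated counts, with 20 shallow libraries of up to 25.1 M and 19 deep libraries of 32.9 M or more. The labels name no batch. Depth differed between compared groups. Of male heads, 4 of 5 2N and 1 of 5 1N libraries were deep. Of female heads, 3 of 5 3N and 0 of 5 2N libraries were deep. Male abdomens had 5 of 5 deep in 2N and 4 of 5 in 1N. Female abdomens had 1 of 5 deep in 3N and 1 of 4 in 2N. In male heads every shallow library also has a name ending in a letter. The label of a male-biased pair held for CYP6CK8 in both tissues and for CYP6CK11 in heads. In abdomens the CYP6CK11 levels of the sexes overlapped. In whole tissues, fewer cells of an expressing type and less RNA per cell cannot be told apart.

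CYP6CK8 was a male transcript of both body parts, at levels above 19 TPM (a share of the library, per M transcripts, scaled for gene length) in every male library and at most 1.16 TPM in every female library. In 2N male abdomens the 5 libraries had 139, 148, 156, 161 and 163 TPM, a mean of 153 ± 9.95 (SD, n = 5). In 1N male abdomens they had 58.0, 206, 235, 253 and 259 TPM, a mean of 202 ± 83.2 (SD, n = 5). Library B6A, the 1 shallow library of that group, held the lowest of these values and the other 4 lay above every 2N male abdomen.

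In male heads CYP6CK8 reached the same range with a wider spread. The 2N male heads had 57.7, 185, 193, 208 and 240 TPM, a mean of 177 ± 69.7 (SD, n = 5). The 1N male heads had 19.2, 74.3, 86.7, 93.3 and 163 TPM, a mean of 87.3 ± 51.4 (SD, n = 5). The low 2N library (B12A) lay within the 1N range, and the high 1N library (B3) was the only deep one of its group.

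Female libraries held CYP6CK8 at 0 to 75 counts per library. The 3N female abdomens had 0.05, 0.38, 0.81, 0.84 and 1.16 TPM, from 126 counts in the 5 libraries. Of the 2N female abdomens, 3 were listed at 0 and 1 at 0.04 TPM, from 1 count in all 4. These abdominal groups did not overlap. The 3N female heads had 0, 0.17, 0.27, 0.30 and 0.56 TPM, against 0, 0.16, 0.38, 0.54 and 0.80 TPM in 2N female heads, and these overlapped.

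**Figure D1:**
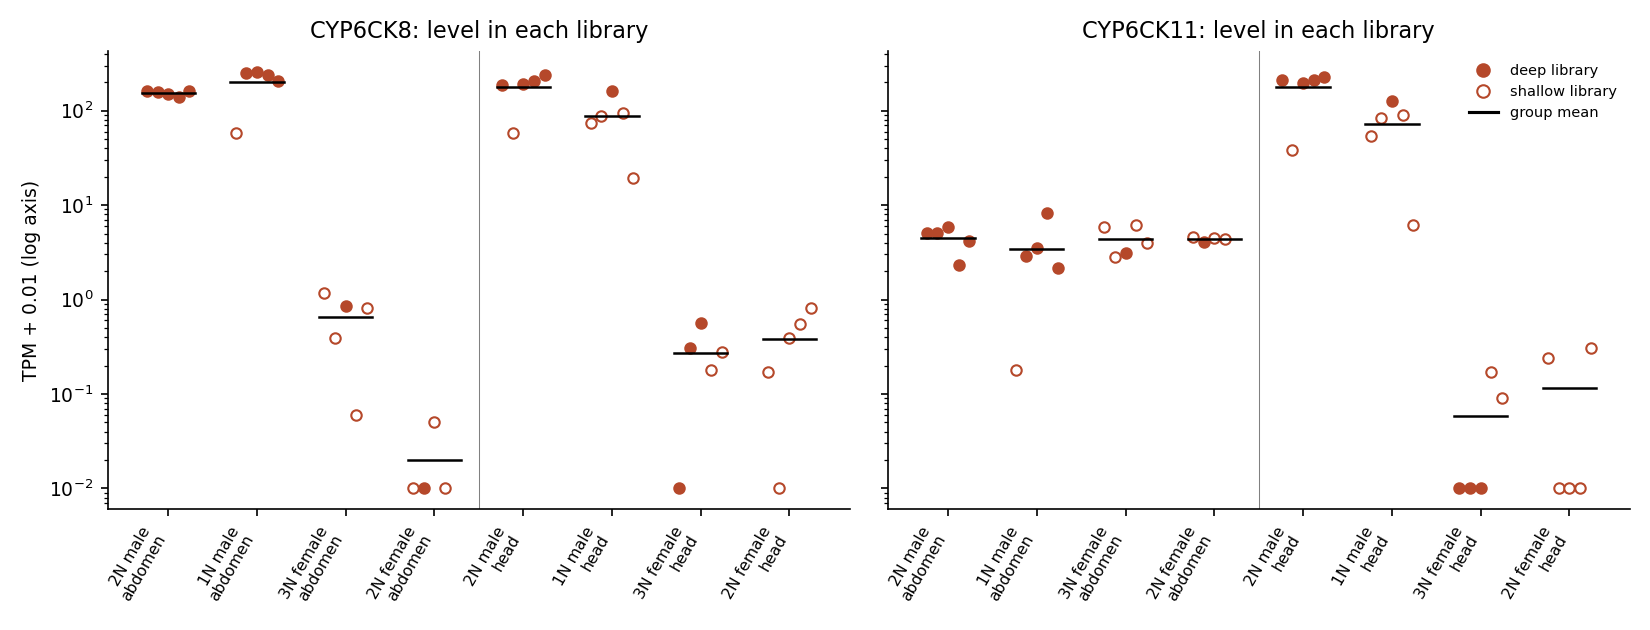
TPM of CYP6CK8 (left) and CYP6CK11 (right) in each of the 39 libraries, on a log axis after adding 0.01, by group. Filled points are deep libraries, open points shallow ones, and bars group means. CYP6CK8 is above 19 TPM in all male libraries and at most 1.16 TPM in all female ones, whereas CYP6CK11 separates the sexes in heads and lies between 0.17 and 8.22 TPM in abdomens of both sexes.

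CYP6CK11 was as abundant as CYP6CK8 in male heads and low everywhere else. The 2N male heads had 38.4, 197, 209, 211 and 226 TPM, a mean of 176 ± 77.7 (SD, n = 5). The 1N male heads had 6.16, 54.0, 84.2, 89.2 and 128 TPM, a mean of 72.3 ± 45.4 (SD, n = 5). The lowest library of each group was the same as for CYP6CK8, B12A among 2N heads and B5D among 1N heads. In female heads the gene was nearly absent, with 0, 0, 0, 0.08 and 0.16 TPM in 3N females from 3 counts, and 0, 0, 0, 0.23 and 0.30 TPM in 2N females from 7 counts.

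Abdomens of both sexes carried CYP6CK11 at a few TPM. The 2N male abdomens had 2.31, 4.2, 5.01, 5.08 and 5.89 TPM, a mean of 4.50 ± 1.36 (SD, n = 5). The 1N male abdomens had 0.17, 2.14, 2.90, 3.5 and 8.22 TPM, a mean of 3.39 ± 2.98 (SD, n = 5), with B6A lowest. The 3N female abdomens had 2.79, 3.08, 3.91, 5.82 and 6.11 TPM, a mean of 4.34 ± 1.54 (SD, n = 5), and the 2N female abdomens had 4.05, 4.41, 4.46 and 4.60 TPM, a mean of 4.38 ± 0.234 (SD, n = 4). All 4 ranges overlapped.

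Ordered by mean TPM, CYP6CK8 ran from 1N male abdomens through 2N male heads and 2N male abdomens to 1N male heads, each overlapping the next. After a gap with no overlap came 3N female abdomens, 2N female heads, 3N female heads and 2N female abdomens, again each overlapping the next. CYP6CK11 ran from 2N male heads to 1N male heads, which overlapped, then after a gap through the 4 abdominal groups to 2N and 3N female heads, all overlapping their neighbours. CPM are counts per M of the library total over filtered genes, scaled by TMM normalization and without length scaling. By CPM, 2 adjacent pairs of overlapping groups changed places. These were 2N male abdomens with 2N male heads for CYP6CK8 and 3N with 2N female abdomens for CYP6CK11.

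The size of the sex difference, which selected the pair, was large in heads. Between 2N males and 2N females, CYP6CK8 had 52220 counts in male heads and 24 in female heads. This was a ratio of 538 per unit of TMM-scaled library total (95% counting interval 362 to 840), the scale of all such ratios below. CYP6CK11 had 56942 counts in 2N male heads and 7 in 2N female heads, a ratio of 2012 (977 to 5005). For 1N males against 2N females the head ratios were 304 (204 to 474) for CYP6CK8 and 903 (438 to 2248) for CYP6CK11. Neither gene's head libraries overlapped between the sexes in either comparison, in which 27.9% and 21.6% of all genes tested passed an adjusted p of 0.05. These intervals cover counting error only, not the spread between libraries.

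In abdomens the pair parted. CYP6CK8 had 57039 counts in 2N male abdomens and 1 in 2N female abdomens, a ratio of 20070 (95% counting interval 3602 to 792800), and 45402 counts in 1N male abdomens. CYP6CK11 had 1892 counts in 2N male abdomens and 478 in 2N female abdomens, a ratio of 1.39 (1.26 to 1.54), and the 1N male ratio was 1.24 (1.11 to 1.39). The abdomens of the sexes differed in most genes, with 83.5% of those tested called between 2N males and 2N females and 83.6% between 1N males and 2N females.

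Tissue was compared as abdomen minus head within each ploidy and sex, with edgeR's quasi-likelihood test on all 39 libraries and Benjamini-Hochberg adjustment over 12402 genes. This contrast did not choose the genes, although the same libraries did, and a male-biased pair is by selection high in some male libraries and low in female ones. CYP6CK11 was lower in abdomens than in heads of males and higher in abdomens than in heads of females. In 2N males it fell by 4.53 ± 0.64 on the log2 scale (SE, adjusted p = 1.54e-07), without overlap. In 1N males it fell by 3.71 ± 0.62 (SE, adjusted p = 2.92e-06), where abdomen B9 at 8.22 TPM exceeded head B5D at 6.16 TPM.

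In females the tissue difference of CYP6CK11 ran the other way. The 3N female abdomens held 705 counts, against 3 in 3N female heads, and passed edgeR's test (adjusted p = 1.35e-08). The ratio was 268 per unit of TMM-scaled library total (91.3 to 1302 by counting error at 95%). The 2N female abdomens held 478 counts, against 7 in 2N female heads, a log2 difference of 5.81 ± 0.90 (SE, adjusted p = 4.9e-07 by the same test). Neither pair of groups overlapped, where 72.9% of all genes tested were called in 3N and 80.3% in 2N females. The low level of female heads was itself part of the choice of the gene, so these tests are not independent of that choice.

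CYP6CK8 had a smaller tissue difference in males. In 2N males the log2 difference was 0.54 ± 0.46 (SE, adjusted p = 0.311 by edgeR), which did not pass, and it was -0.06 on the log2(TPM + 1) scale. In 1N males CYP6CK8 was higher in abdomens by 1.86 ± 0.47 (SE, adjusted p = 0.000853 by edgeR), although abdomen B6A lay within the head range. Within the deep libraries, 4 abdomens and 1 head, the 1N male difference was 1.10 (adjusted p = 0.0503), and within the shallow libraries, 1 abdomen and 4 heads, it was 0.41 (adjusted p = 0.736), each with a fit that takes the lone library to vary like the other groups.

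In females CYP6CK8 took opposite directions in the ploidies. The 3N female abdomens exceeded 3N female heads by 1.80 ± 0.66 on the log2 scale (SE, adjusted p = 0.0151 by edgeR), with overlap. This call was lost without abdomen B38 (1.61, adjusted p = 0.0505) and without head B31 (1.41, adjusted p = 0.0507). It was also lost with only the 2 groups in the fit and no count filter (1.73, adjusted p = 0.162). The 2N female abdomens held 1 count, against 24 in 2N female heads, a ratio of 0.0353 (0.000859 to 0.217 by counting error at 95%), and passed edgeR's test (adjusted p = 0.01). With these 2 groups alone and no filter it was -4.26 log2 (adjusted p = 0.00622). Fitted on the female libraries of either ploidy alone, CYP6CK8 would not have passed the filter on low counts. Tissue calls were common among all genes. They made up 65.3% of genes tested in 2N and 65.1% in 1N males, and 72.9% in 3N and 80.3% in 2N females.

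**Figure D2:**
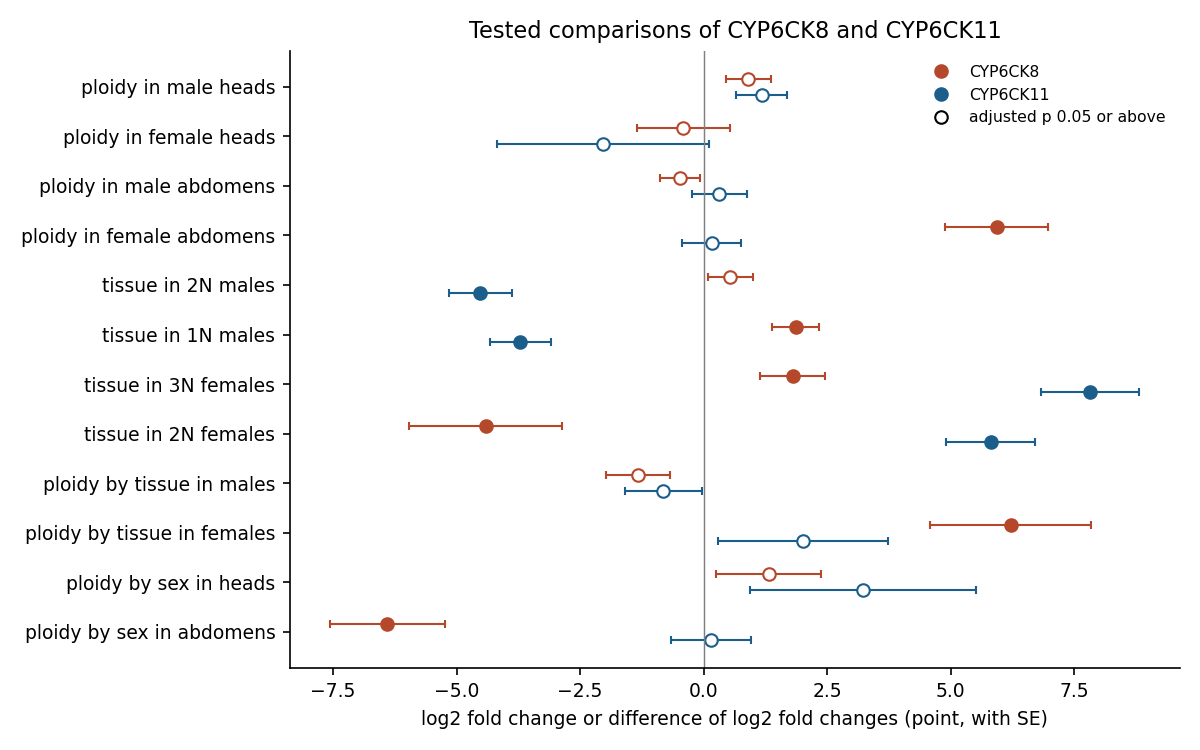
Log2 differences of CYP6CK8 and CYP6CK11 with their SE from edgeR in the 12 tested comparisons. Ploidy is 2N minus 1N in males and 3N minus 2N in females, tissue is abdomen minus head, and the last 4 lines are differences of log2 fold changes, abdomen minus head or males minus females. Filled points passed an adjusted p of 0.05: CYP6CK8 stands out in female abdomens at 5.93, and CYP6CK11 has negative tissue differences in males and positive ones in females.

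CYP6CK8 rose with ploidy in female abdomens, where 3N libraries exceeded 2N ones, and ploidy gave no call for either gene in heads or in male abdomens. In 3N female abdomens the 126 counts compared with 1 count in 2N female abdomens, in library B28A. The ratio was 80.0 per unit of TMM-scaled library total (95% counting interval 14.1 to 3186). The fitted log2 difference was 5.93 ± 1.05 (SE, adjusted p = 0.000228 by edgeR, fit on 19 abdomens), and 38.8% of all 11884 genes tested were called in this comparison. CYP6CK8 passed the filter through the male abdomens in that fit, and the filter removed it when only the 3N and 2N female abdomens were fitted. On those 9 libraries with no filter the log2 difference was 5.72 (adjusted p = 0.00904 by edgeR). The low level of 2N females was itself part of the choice of the gene, so these tests are not independent of that choice. The rise left the gene far below male abdomens, since the highest 3N female library had 1.16 TPM and the lowest male abdomen 58.0 TPM. CYP6CK11 had a log2 difference of 0.16 ± 0.60 in the same comparison (SE, adjusted p = 0.862).

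Library B39A held 1 of the 126 CYP6CK8 counts of the 3N female abdomens, and without it the log2 difference was 6.27 (adjusted p = 8.25e-06 by edgeR). Summed tissue markers also differed between the 3N and 2N female abdomens, without overlap except for the cuticle and chitinase genes. The summed level of 2 ovary genes, oskar and nanos, was 425 to 1081 CPM in 3N libraries, against 1093 to 1263 CPM in 2N libraries, with neither gene at 0. The 4 fat body markers (the hexamerin genes Hex109, Hex70b and Hex83, and Akhr) summed to 4.13 to 55.8 CPM in 3N libraries, against 2.57 to 3.35 CPM in 2N libraries, with none at 0.

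The oenocyte marker CYP4G43, whose family makes cuticular hydrocarbons, was at 478 to 1411 CPM in 3N and 202 to 290 CPM in 2N female abdomens. The 3 muscle markers (Tm1, Tm2 and Zasp66) summed to 631 to 1586 CPM in 3N and 495 to 592 CPM in 2N female abdomens, none at 0. The 17 neuronal markers summed to 25.8 to 101 CPM in 3N, with up to 4 at 0, and to 18.8 to 25.3 CPM in 2N, with up to 5 at 0. The 36 cuticle and chitinase genes summed to 106 to 1952 CPM in 3N, with up to 20 at 0, and to 57.6 to 107 CPM in 2N, with up to 24 at 0. Library B39A had the highest ovary sum and the lowest of all the other sums among the 3N libraries. The part of tissue makeup in the CYP6CK8 difference was not tested.

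In male heads both genes were lower on average in 1N than in 2N libraries, but neither difference passed. CYP6CK8 had a log2 difference of 0.90 ± 0.46 (2N minus 1N, SE, adjusted p = 0.49 by edgeR) and CYP6CK11 one of 1.18 ± 0.52 (SE, adjusted p = 0.437), where 0.0738% of the 10846 genes tested were called. Library depth moved with this difference. The deep libraries had a mean of 206 TPM of CYP6CK8 in 4 2N heads and 163 TPM in 1 1N head, and the shallow ones 57.7 TPM in 1 2N head and a mean of 68.4 TPM in 4 1N heads. For CYP6CK11 the deep libraries had 211 TPM in 2N and 128 TPM in 1N heads, and the shallow ones 38.4 TPM in the 2N head and 58.4 TPM in 1N heads.

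With a term for deep libraries the log2 differences in male heads were 0.12 for CYP6CK8 (adjusted p = 0.943 by edgeR) and 0.19 for CYP6CK11 (adjusted p = 0.929). Within deep libraries they were 0.14 and 0.51, and within shallow libraries 0.02 and -0.33, for CYP6CK8 and CYP6CK11 in that order. Library B12A, low in both genes among 2N heads, had a sum of 26070 CPM over the 36 cuticle and chitinase genes. The other 4 2N heads had 973 to 2976 CPM, against 6290 to 18710 CPM in 1N heads, with up to 20 of the genes at 0 in 2N and up to 15 in 1N heads. B12A also had the highest muscle sum, 1946 CPM, against 408 to 839 CPM in 1N heads. The part of depth and of tissue makeup in the male head levels was not tested further.

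**Figure D3:**
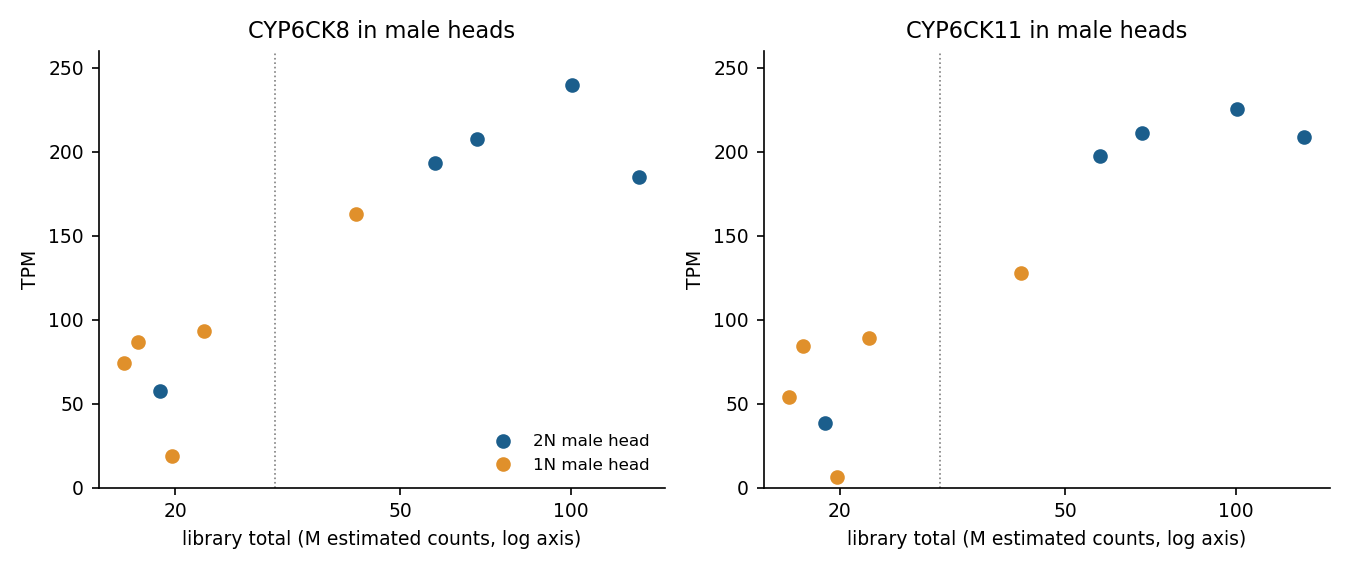
TPM of CYP6CK8 (left) and CYP6CK11 (right) in the 10 male heads against the library total in estimated counts (M, log axis), with 2N heads in blue and 1N heads in orange. The dotted line at 30 M separates shallow from deep libraries. Every deep library lies above every shallow one for both genes, at 163 TPM or more for CYP6CK8 and 128 TPM or more for CYP6CK11.

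The remaining ploidy comparisons gave no call for the pair. In male abdomens the 2N minus 1N log2 difference was -0.47 ± 0.41 for CYP6CK8 (SE, adjusted p = 0.996 by edgeR) and 0.31 ± 0.56 for CYP6CK11 (SE, adjusted p = 1), with 0.0421% of genes called. Without the low 1N male abdomen B6A, and without 3N female abdomen B39A, the CYP6CK8 difference was -0.71 ± 0.16 (SE, adjusted p = 0.11 by edgeR). Within the deep male abdomens it was -0.69. In female heads, with 40 counts in 3N and 24 in 2N libraries, CYP6CK8 had a 3N minus 2N log2 difference of -0.41 ± 0.94 (SE, adjusted p = 0.839). With a term for deep libraries it was -1.54 (adjusted p = 0.322 by edgeR). At 3 and 7 counts a difference of CYP6CK11 in female heads was not detectable at this depth, and 0.313% of genes were called there.

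The ploidy difference of CYP6CK8 in females differed between tissues. It was larger in abdomens than in heads by 6.21 ± 1.64 on the log2 scale (SE, adjusted p = 0.00351 by edgeR), in an interaction test that called 32.3% of genes. Between the sexes, the abdominal ploidy difference of males minus that of females was -6.40 ± 1.15 (SE, adjusted p = 0.000505), in a test that called 27.1% of genes. Both values rest on the group of 2N female abdomens with 1 count, so their size is imprecise. The gene was chosen by male and female levels in these same libraries, and it passed the filter through male abdomens. Both comparisons include the 2N female abdomens, so neither is independent of that choice. Without B28A, which held that count, the values were 8.07 and -8.33 and still passed. The same tests gave 2.02 ± 1.72 (adjusted p = 0.392) and 0.15 ± 0.81 (adjusted p = 0.925) for CYP6CK11.

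In males the ploidy differences of abdomens minus those of heads were -1.33 ± 0.65 for CYP6CK8 (SE, adjusted p = 0.765 by edgeR) and -0.82 ± 0.78 for CYP6CK11 (SE, adjusted p = 0.94), with 0.0484% of genes called. In heads, the ploidy difference of males minus that of females was 1.32 ± 1.06 for CYP6CK8 (adjusted p = 0.677) and 3.22 ± 2.29 for CYP6CK11 (adjusted p = 0.634). That test called 0% of genes with edgeR, where 1044 genes had an unadjusted p under 0.05 and DESeq2 called 12.

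CYP6CK11 shares reads with CYP6CK10, its immediate neighbour in the RefSeq gene order of assembly Nvit_psr_1.1. The counts are estimates in which reads that match more than 1 gene are divided. CYP6CK10 and CYP6CK11 each held a count that is not whole in 26 of 39 libraries, yet their sum was whole within 0.005 in all 39. The counts of CYP6CK8 and of the other 4 CYP6CK genes were whole in every library.

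The division of the pair's counts differed by tissue and sex. CYP6CK11 was given 99.5% to 99.8% of them in 2N male heads and 98.4% to 100% in 1N male heads. In 2N male abdomens it was given 19.3% to 36.2%, and in 1N male abdomens 1.31% to 36.9%, with B6A lowest. In female abdomens the share was 72.4% to 90.9% in 3N and 86.0% to 97.3% in 2N libraries. In every male abdomen, more of the pair's counts thus went to CYP6CK10 than to CYP6CK11.

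Summing the neighbours avoids the division. Together they had 124 ± 51.4 CPM in 2N male heads and 55.1 ± 35.1 CPM in 1N male heads (SD, n = 5 each). In abdomens the males had 19.2 ± 3.72 CPM (2N) and 17.7 ± 6.45 CPM (1N), and the females 5.05 ± 1.57 CPM (3N, SD, n = 5 for these groups) and 4.52 ± 0.267 CPM (2N, SD, n = 4). Male and female abdomens, which overlapped in CYP6CK11 alone, did not overlap in the sum, at 10.2 CPM or more in males and at most 7.39 CPM in females. CYP6CK10 as listed averaged 13.85 and 13.64 CPM in 2N and 1N male abdomens, against 0.892 and 0.370 CPM in 3N and 2N female abdomens. The sum does not tell which of the 2 genes differs between the sexes. Of all genes tested in abdomens, 83.5% were called between 2N males and 2N females and 83.6% between 1N males and 2N females.

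The tissue calls of CYP6CK11 also passed for the sum, at smaller sizes. The log2 difference was -2.69 in 2N males (adjusted p = 2.98e-05 by edgeR) and -1.63 in 1N males (adjusted p = 0.0049). It was 5.01 for 3N and 4.77 for 2N females. This sum was added after the data had been seen.

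**Figure D4:**
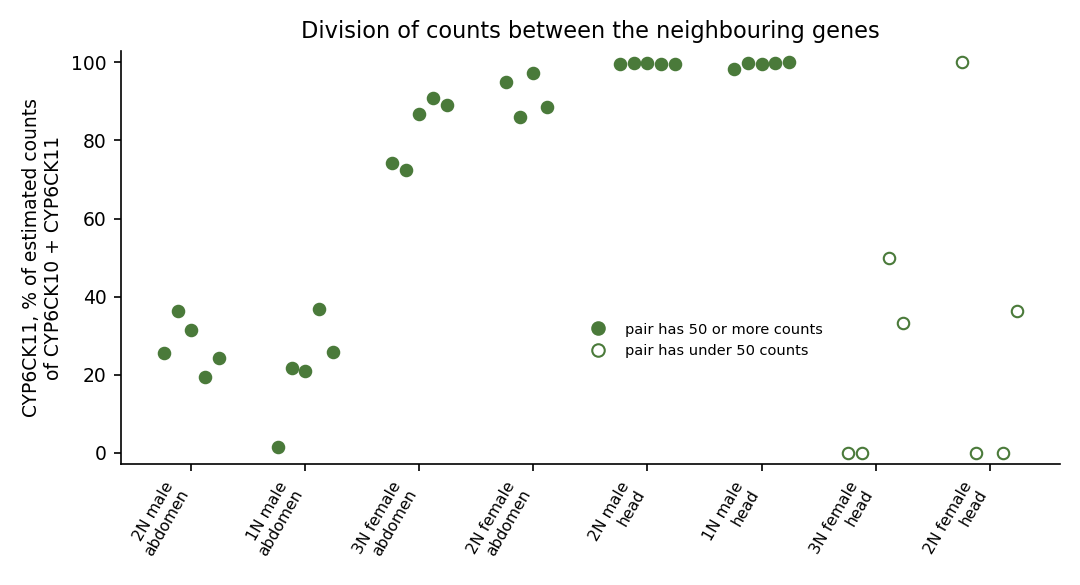
Percent of the estimated counts of CYP6CK10 and CYP6CK11 that was given to CYP6CK11, in each library with any such count, by group. Filled points have 50 or more counts in the pair and open points fewer. The share is 98.4% or more in male heads, 72.4% to 97.3% in female abdomens and 1.31% to 36.9% in male abdomens.

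The balance of the pair was compared as the log2 ratio of CYP6CK8 to CYP6CK11 counts per library (0.5 counts added to each), a ratio without length correction that is read only between groups. On the length-corrected TPM scale, CYP6CK8 was 25.2 to 59.98 times CYP6CK11 in 2N male abdomens and 28.6 to 341 times in 1N male abdomens. In male heads the TPM ratio was 0.886 to 1.503 in 2N and 1.03 to 3.11 in 1N libraries, so the genes were close to equal in most. The abdominal ratios depend on how reads were divided between CYP6CK10 and CYP6CK11. Against the summed TPM of the neighbours, CYP6CK8 was 9.37 to 14.1 times as high in 2N male abdomens and 5.71 to 29.7 times in 1N male abdomens. In male heads the ratio to the sum was 0.884 to 1.501 in 2N and 1.03 to 3.11 in 1N libraries. The 1N head with the ratio of 3.11 was B5D, the lowest in both genes.

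The log2 count ratio was higher in abdomens than in heads by 5.07 in 2N males and by 5.94 in 1N males, and the difference was -5.40 in 3N females (two-sided exact permutation test, p = 0.00794 each, the smallest that 5 against 5 libraries allow, adjusted p = 0.0212 over 8 comparisons). In 2N females the difference was -9.09 (exact permutation p = 0.0159, adjusted p = 0.0317). Groups did not overlap in any of the 4. With CYP6CK10 counts added to those of CYP6CK11, the difference was 3.17 in 2N and 1N males alike (exact permutation p = 0.00794 and adjusted p = 0.0317 each). It was -3.52 in 3N females (exact permutation p = 0.103, adjusted p = 0.165), which did not pass, and -8.31 in 2N females (exact permutation p = 0.0159, adjusted p = 0.0423). In female heads 3 of 5 libraries of each ploidy had no CYP6CK11 count, and 1 of 5 had no count of either gene. The female head ratios and the size of the female differences thus depend on the 0.5 counts added. Low female levels were also part of the choice of the pair, so the ratio tests in females are not independent of that choice. By ploidy, the ratio differed by -1.29 in male abdomens (exact permutation p = 0.0476, adjusted p = 0.0635) and by 4.26 in female abdomens (exact permutation p = 0.0317, adjusted p = 0.0508), neither of which passed. With CYP6CK10 added these were -0.42 (adjusted p = 0.444) and 4.11 (adjusted p = 0.0635) by the same exact permutation test. In male heads the ratio differed by -0.42 (exact permutation, adjusted p = 0.272), and in female heads it could not be read.

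The other 5 CYP6CK genes had other patterns, and none was high in male heads alone. CYP6CK7 averaged 132 ± 14.2 TPM in 2N and 141 ± 57.5 TPM in 1N male abdomens (SD, n = 5 each), against 11.9 ± 8.91 TPM in 3N and 0.128 ± 0.0680 TPM in 2N female abdomens. CYP6CK6 averaged 19.2 and 21.5 TPM in 2N and 1N male abdomens, against 1.22 and 0.0175 TPM in 3N and 2N female abdomens. In heads neither gene passed between the sexes, with CYP6CK7 at adjusted p = 0.836 and CYP6CK6 at 0.388 between 2N males and 2N females by edgeR.

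CYP6CK10 averaged 9.16 TPM in 2N male abdomens and 8.80 TPM in 1N male abdomens, against 0.716 TPM in 3N and 0.310 TPM in 2N female abdomens, with the uncertainty of its shared reads. CYP6CK3 ran the other way, at 0.134 and 0.292 TPM in 2N and 1N male abdomens, against 4.92 and 6.50 TPM in 3N and 2N female abdomens (2N males minus 2N females -5.25 ± 1.07 log2, SE, adjusted p = 0.000196 by edgeR). CYP6CK13P, annotated as a transcribed pseudogene, averaged between 11.6 and 24.4 TPM in the head groups and under 1 TPM in the abdominal groups.

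**Figure D5:**
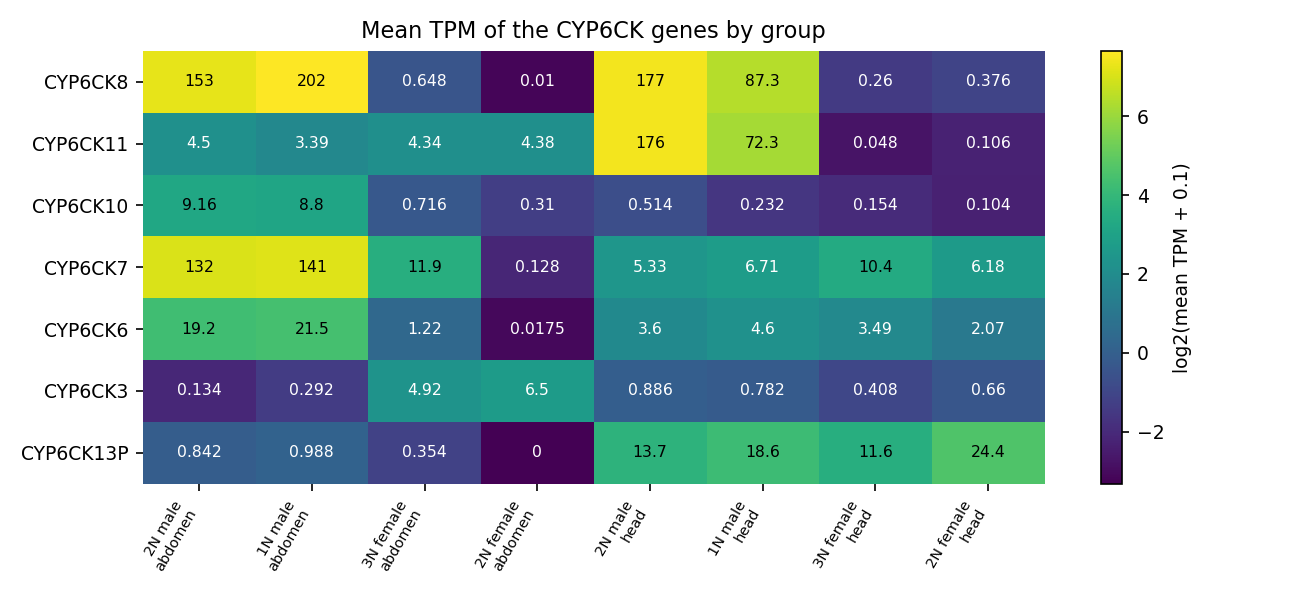
Mean TPM of the 7 CYP6CK genes (rows) in the 8 groups (columns), with colour for log2(mean TPM + 0.1) and the mean printed in each cell. CYP6CK8 is high in all 4 male groups, CYP6CK11 in male heads, CYP6CK7 and CYP6CK6 in male abdomens, CYP6CK3 in female abdomens and CYP6CK13P in heads of both sexes.

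In 3N female abdomens 4 of the other 5 CYP6CK genes were also called higher, but only CYP6CK7 did so without overlap. CYP6CK7 was higher there than in 2N female abdomens by 6.83 ± 0.87 log2 (SE, adjusted p = 1.6e-05 by edgeR) and CYP6CK6 by 6.37 ± 1.25 (SE, adjusted p = 0.000545). CYP6CK10 and CYP6CK13P also passed (adjusted p = 0.0291 and 0.0382), and CYP6CK3 did not (-0.24 ± 0.92, adjusted p = 0.863). Counts in 3N and 2N female abdomens were 239 and 2 for CYP6CK6, 136 and 47 for CYP6CK10, and 12 and 0 for CYP6CK13P. Libraries of the 2 groups overlapped for each of these genes, and CYP6CK10 shares reads with CYP6CK11. Over the 40 cytochrome P450 genes other than the pair, 32 rose and 0 fell in 3N female abdomens, with a median log2 difference of 4.89, against 0.10 over all genes tested. Of all 11884 genes tested, 38.8% were called, 3415 higher and 1191 lower. The smallest adjusted p-values were those of CYP4AB8 (5.19 ± 0.55, adjusted p = 1.19e-05) and CYP4AB6 (5.81 ± 0.68, adjusted p = 1.23e-05).

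Of the glutathione transferases and carboxylesterases, other enzymes of detoxification, 16 of 30 rose and 0 fell in 3N female abdomens (median log2 difference 1.61). Of all 11884 genes tested, 3415 rose and 1191 fell, together 38.8%. No P450 gene passed for ploidy in male abdomens (40 tested), male heads or female heads (37 tested each) with edgeR. Of all genes 0.0421%, 0.0738% and 0.313% were called there, in that order. At an unadjusted p under 0.05 the P450 counts were 0 in male abdomens, 3 in male heads and 6 in female heads, beside 645, 1159 and 1988 of all genes. DESeq2 called 0, 0 and 4 P450 genes in that order, beside 71, 75 and 587 of all genes. In female heads edgeR called 7 P450 genes with only the compared groups in the fit, 4 with a term for deep libraries, and 1 each with library totals alone or a term for letter-named libraries. The share of all genes called in these alternative fits is not given here, so those counts have no background. The interaction tests called 29 of 40 P450 genes for ploidy by tissue in females, all larger in abdomens. They called 32.3% of all genes, 2843 positive and 1169 negative. The P450 genes included CYP9AH6 (5.78 ± 0.64, adjusted p = 3.33e-08) and CYP9P3 (5.72 ± 0.65, adjusted p = 4.86e-08). For ploidy by sex in abdomens 29 of 40 P450 genes passed, all negative as in CYP6CK8, beside 27.1% of all genes, 410 positive and 2808 negative. Among these P450 genes were CYP4AB6 at -6.01 ± 0.80 and CYP4AB8 at -5.32 ± 0.66 (adjusted p = 0.00012 each).

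Fewer P450 genes were lower in male abdomens than in male heads, as CYP6CK11 was, than were higher. Between abdomens and heads, 25 of 40 P450 genes were higher in abdomens of 2N males and 7 lower (median 1.71), and 28 were higher and 6 lower in 1N males (median 2.02). Among all genes tested 65.3% were called in 2N and 65.1% in 1N males, and the medians were 0.00 and -0.02. Like CYP6CK11, CYP9AG7 and CYP6AQ8 were lower in 2N male abdomens, by -9.95 ± 1.13 and -7.41 ± 0.90 log2 (adjusted p = 2.23e-09 and 9.41e-09 by edgeR). On the other side, CYP314A1, the P450 that activates the moulting hormone ecdysone in Drosophila, was higher in 2N male abdomens by 4.07 ± 0.22 (adjusted p = 4.23e-17), and CYP4G44, of the family of cuticular hydrocarbon synthesis, by 7.66 ± 0.67 (adjusted p = 8.31e-12). The same 4 genes led in 1N males.

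In females CYP6CK11 was higher in abdomens. Of the P450 genes, in 3N females 13 of 40 were higher in abdomens and 16 lower (median -0.35), and in 2N females 6 were higher and 29 lower (median -4.82). Among all genes tested 72.9% were called in 3N and 80.3% in 2N females, with medians of 0.03 and -0.25, so the number of P450 genes called was near the background. CYP314A1 and CYP9AG6 led those higher, at 2.98 ± 0.21 and 3.83 ± 0.34 in 2N females. CYP336B1 and CYP9AH2 led those lower in 2N females, at -9.12 ± 0.70 and -8.70 ± 0.65, and CYP6AQ8 and CYP9AG8P led in 3N females, at -7.80 ± 0.92 and -4.21 ± 0.50. Each of these passed edgeR's test.

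In heads 11 of 37 other P450 genes were higher in 2N males than in 2N females by edgeR and 3 lower, and for 1N males 12 were higher and 2 lower, beside 27.9% and 21.6% of all genes called. CYP9AG7 had the smallest adjusted p, with a mean of 11090 CPM in 2N male heads, against 0.0621 CPM in 2N female heads, followed by CYP4AB14 with 866 CPM in 2N male heads, against 6.02 CPM in 2N female heads. CYP4AB12 and CYP4AB18 were the leading genes lower in males, at 4.67 and 0.0805 CPM in 2N male heads, against 63.7 and 6.24 CPM in 2N female heads. In abdomens 36 of 40 were higher and 2 lower in 2N males than in 2N females, with the same counts for 1N males, and the 2 lower ones were CYP6CK3 and CYP9AG6. Of all genes tested there, 83.5% were called for 2N males and 83.6% for 1N males, 5497 and 5582 of them higher in males.

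The genes with profiles most like each member were found by the root mean square difference of group means of log2(CPM + 0.5) over the 8 groups, after each profile was centred, among 12401 genes. Nearest to CYP6CK8 were LOC100379181 (0.78), LOC100121146 (1.02), LOC100119652 (1.10), CYP4AB14 (1.26) and LOC100121014 (1.34). LOC100379181 averaged 284 and 211 CPM in 2N and 1N male abdomens and 25.8 and 26.9 CPM in 2N and 1N male heads, and under 0.05 CPM in every female group. CYP4AB14 averaged 2044 and 1881 CPM in 2N and 1N male abdomens, 866 and 661 CPM in 2N and 1N male heads, and at most 7.56 CPM in female groups. The next P450 genes were CYP4AB9 (1.55, rank 10) and CYP6AQ4 (1.93, rank 41).

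Nearest to CYP6CK11 were LOC100121327 (0.63), LOC100121833 (1.05), LOC100123371 (1.14), LOC100678345 (1.28) and LOC100124060 (1.31). LOC100121327 averaged 107 and 81.5 CPM in 2N and 1N male heads, 4.18 to 17.5 CPM in the abdominal groups and under 1 CPM in female heads. CYP6CK11 had the same order of male heads, abdomens and female heads. Among abdomens, LOC100121327 had both male means (9.68 CPM in 2N and 17.5 CPM in 1N) above both female ones (4.18 CPM in 3N and 8.27 CPM in 2N). This was not so for CYP6CK11. No P450 gene was close, the nearest being CYP6CK3 (2.66, rank 6242), CYP4AB17 (2.71) and CYP6AS28P (2.73). CYP6CK8 and CYP6CK11 do not appear in each other's lists. LOC100678345, on the CYP6CK11 list, and LOC100379181, on the CYP6CK8 list, are immediate neighbours in the RefSeq gene order. On TPM, 4 of 5 names stayed the same for each member.

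The members are not neighbours of each other in the RefSeq gene order. CYP6CK8 lies between the pseudogene LOC100122628, which is not analysed here, and the protein-coding LOC100122651. LOC100122651 averaged 9.55 and 11.5 TPM in 2N and 1N male abdomens, against 1.53 and 0.1 TPM in 3N and 2N female abdomens. It rose in 3N female abdomens as CYP6CK8 did, by 4.10 ± 0.65 log2 (SE, adjusted p = 7.8e-05 by edgeR), from 21 counts in 2N libraries. That comparison called 38.8% of all genes tested, 3415 higher and 1191 lower. In heads, however, LOC100122651 averaged 2.57 to 5.53 TPM in both sexes. CYP6CK11 lies between CYP6CK10 and LOC100117744, whose group means were all under 1 TPM and which passed none of the 12 comparisons with edgeR.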

How the data were processed

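Estimated counts (not normalized) and TPM, which correct for gene length and depth, were deposited by the authors in 1 table each. RSEM 1.3.1 and STAR 2.7.11a stand in the submitters' processing notes, with no step assigned to them. Genome build and strand setting: not given in the sources used here, so reads of overlapping and antisense genes cannot be told apart, and no coordinates are printed. Of the deposited count values 16.8% are not whole. Counts were rounded to whole numbers, changing by at most 0.50. All 14621 symbols matched the RefSeq table of assembly Nvit_psr_1.1, used for names and gene order.

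Groups were read from the labels. Counts were tested with edgeR 4.0.16 (R 4.3.3; TMM, filterByExpr, quasi-likelihood F test, Benjamini-Hochberg over all genes tested), with heads, abdomens or all libraries in one fit, and an SE computed as the log2 difference over the root of F. The test was checked on simulated counts. Counting intervals are exact at 95%. The ratio of the members was tested by exact permutation (SciPy 1.17.1). Alternatives used DESeq2 1.42.0 and limma 3.58.1 on log2(TPM + 1).

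The members and gene lists were chosen with earlier results of these data known. Named genes are the members, all CYP6CK symbols, the 5 genes and 3 P450 genes of nearest profile, up to 2 P450 genes per direction with the smallest adjusted p in each comparison, and immediate neighbours. The same rule was extended to the sex comparisons after the data had been seen. No symbol named a P450 reductase, a cytochrome b5 or a sperm axoneme marker. The row Nos was kept apart from nanos and not used.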

Additional observations from a re-analysis of the deposited data

Results flagged for a closer look

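In 3 of 16 group profiles (2 genes in 8 groups) 1 library stood apart from the others of its group by Dixon's criterion. Chance alone meets it in about 1 of 20 profiles of normally distributed values, a rate that does not hold for counts near 0. CYP6CK8 was at 57.97 TPM in 1N male abdomen B6A, against 205.88 to 258.8 TPM in the other 4. That library was also lowest in CYP6CK11, at 0.17 TPM. CYP6CK8 was at 0.04 TPM in 2N female abdomen B28A, a single read, where the other 3 were listed at 0. With the others at 0, any read there meets the criterion. CYP6CK11 was at 38.4 TPM in 2N male head B12A, against 197.36 to 225.56 TPM in the other 4.

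The ploidy difference of CYP6CK8 differed between groups by an edgeR interaction test in 2 cases. In females it was larger in abdomens than in heads by 6.21 on the log2 scale (adjusted p = 0.00351). In abdomens the difference of males minus that of females was -6.4 (adjusted p = 0.000505). The gene was chosen by male and female levels in these libraries and passed the filter on low counts through male libraries. Both tests include the 2N female abdomens, so neither is independent of that choice. In 3N female abdomens all 5 libraries held at least 1 read of the gene, against 1 of 4 libraries in 2N females.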

How the results depend on the processing

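Of 761 values of the members under alternatives, 712 kept their direction and side of the threshold, 28 lost a call, 3 gained one and 18 changed sign. All edgeR calls of the members were kept with median-ratio factors, library totals, no filter, DESeq2 and terms for deep or letter-named libraries. On log2(TPM + 1), with or without the filter, CYP6CK8 lost its calls for ploidy in female abdomens (0.66), tissue in 3N (0.36) and 2N females (-0.42), ploidy by tissue in females (0.77) and ploidy by sex in abdomens (-0.89); that pseudocount exceeds most female values. Uncalled values changed sign for tissue of CYP6CK8 in 2N males (-0.06) and ploidy of CYP6CK11 in female abdomens (-0.057). On log2(TPM + 0.1) these 2 were -0.059 and -0.081, and tissue of CYP6CK8 in 3N females was not called (0.98). Without B6A and B39A, ploidy by sex of CYP6CK11 in abdomens was -0.092 and the ratio's ploidy difference in female abdomens 5.07, now passing. With CYP6CK10 added, ploidy by sex of CYP6CK11 in abdomens was -0.26, and the ratio's difference was -3.52 for tissue in 3N females, not passing, and -0.69 for ploidy in female heads. In deep libraries alone, ploidy of CYP6CK11 in female abdomens was -0.055 and tissue of CYP6CK8 in 1N males 1.10, not called. In shallow libraries alone, uncalled CYP6CK11 values were -0.33 (ploidy, male heads), 0.13 (ploidy, female heads), -0.095 (ploidy by tissue, females) and -0.45 (ploidy by sex, heads), and CYP6CK8 lost tissue in 1N males (0.41) and 3N females (1.96) and ploidy by tissue in females (5.67). The cause of these changes was not tested.

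Leaving out 1 library each, CYP6CK8 ranged from 1.41 to 2.62 for tissue in 3N females, from 5.44 to 7.88 (without B28A, which held the only count of its group) for ploidy in female abdomens and from -1.25 to 0.025 for ploidy in female heads, and CYP6CK11 from -0.15 to 0.83 for ploidy by sex in abdomens. The ratio ranged from -1.70 (without B9, passing) to -0.86 for ploidy in male abdomens, from 3.95 to 5.07 (without B39A, passing) in female abdomens, from -0.34 to 1.14 in female heads, and from -9.61 to -8.52 for tissue in 2N females, where no test passed after adjustment because fewer libraries raise the smallest p attainable. No paired analysis was possible because the library numbers are not shared between groups. With only the compared groups in the fit, the filter removed CYP6CK8 from all 4 female comparisons of 2 groups (ploidy in heads and abdomens, tissue in 3N and 2N) and CYP6CK11 from ploidy in female heads. These groups without a filter, added after the data had been seen, kept every call of the members except tissue of CYP6CK8 in 3N females (1.73).

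DESeq2 called more genes for ploidy than edgeR, with 75 against 8 in male heads, 587 against 34 in female heads, 71 against 5 in male abdomens, 39 against 6 for ploidy by tissue in males and 12 against 0 for ploidy by sex in heads. Of 148 counts of P450 genes under alternatives, 8 moved by over 1.5 times. Low counts in female heads and 2N female abdomens limit the precision of every fold there.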
